A study of Mus musculus with 6 samples.

Results

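Endosomal sorting adaptors, ubiquitin ligases and deubiquitinases were followed in mouse embryonic fibroblasts that lack Kdm5a. The set held 8 genes: Hgs, Stam, Stam2, Tsg101, Itch, Nedd4, Usp8 and Stambp. Stam and Itch were selected on their measured values, which stood higher with wild-type KDM5A than with the mutant KDM5A-H483A, and the other 6 genes were added as parts of the same pathway. All probe sets that the platform annotation gives to 1 of these genes alone were kept apart, which gave 23 of the 45037 probe sets analysed (8 of 18193 genes). Because of this selection, the differences of Stam and Itch are given as descriptions with no p-value.

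The cells of all 3 groups were immortalized Kdm5a-/- fibroblasts of mixed background strain, kept subconfluent in serum-containing medium, and none of them had its own Kdm5a. The groups differed in what had been put back: an empty vector (the vector arrays), KDM5A of wild-type sequence (the wild-type arrays), or KDM5A-H483A (the H483A arrays), whose catalytic jumonji domain has a histidine changed to alanine. A comparison written as wild-type over vector gives the first minus the second on the log2 scale. KDM5A removes methyl groups from lysine 4 of histone H3, a mark of active promoters. Total RNA was measured on Affymetrix mouse M430 2.0 arrays, 2 per group and 6 in all, described as biological replicates. The labels do not say whether the cells came from 1 clone, how KDM5A was introduced, or what set the replicates of a group apart, so a p-value here covers only sample-to-sample spread, which may be technical. Values are log2 RMA expression values, 1 per probe set and array, so a difference of 1 is a doubling of signal.

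Receptors that are to be destroyed are tagged with ubiquitin at the plasma membrane or on endosomes. The tag is read by ESCRT-0, a complex of HGS (also called HRS) with STAM or STAM2, which hands the cargo to ESCRT-I through TSG101 and on to the later ESCRT complexes that bud it into multivesicular bodies. ITCH and NEDD4 are HECT-type ubiquitin ligases with WW domains that tag receptors and other substrates. USP8 and STAMBP (also called AMSH) bind STAM and take ubiquitin off again. In fibroblasts this route limits signalling by growth factor receptors such as those of PDGF and EGF.

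The start regions of 4 of the genes are shown because Stam and Stambp both stood higher in the wild-type arrays than in the other 2 groups at their brightest probe sets, whereas Stam2, the paralogue of Stam, and Hgs, their partner in ESCRT-0, did not. This contrast depends on the probe set, and Stam was selected on part of it. Stam2 also had the wild-type arrays highest at 1416976_at, and Stambp had the H483A arrays highest at 1416317_a_at. Each is a RefSeq window of GRCm38.p6 with 250 bases before and 50 after an annotated start, written 5′ to 3′ on the strand of the gene. Capitals mark CCGCCC on either strand (GGGCGG when read on this strand), the letters that the ARID domain of KDM5A is known to bind and also those of the GC box of the Sp1 family.
Stam, chr2:14073850-14074149, plus strand: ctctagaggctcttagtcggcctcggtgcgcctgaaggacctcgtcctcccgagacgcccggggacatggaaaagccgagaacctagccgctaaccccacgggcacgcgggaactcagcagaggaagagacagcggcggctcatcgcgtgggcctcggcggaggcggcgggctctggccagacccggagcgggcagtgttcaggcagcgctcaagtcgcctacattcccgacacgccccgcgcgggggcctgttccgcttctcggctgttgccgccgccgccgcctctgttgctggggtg
Stambp, chr6:83572455-83572754, minus strand: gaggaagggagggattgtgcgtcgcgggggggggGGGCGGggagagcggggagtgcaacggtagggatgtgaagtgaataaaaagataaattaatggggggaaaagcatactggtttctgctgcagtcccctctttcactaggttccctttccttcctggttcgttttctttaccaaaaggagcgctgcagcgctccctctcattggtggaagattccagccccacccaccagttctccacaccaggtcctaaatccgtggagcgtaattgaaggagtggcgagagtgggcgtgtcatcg
Stam2, chr2:52742100-52742399, minus strand: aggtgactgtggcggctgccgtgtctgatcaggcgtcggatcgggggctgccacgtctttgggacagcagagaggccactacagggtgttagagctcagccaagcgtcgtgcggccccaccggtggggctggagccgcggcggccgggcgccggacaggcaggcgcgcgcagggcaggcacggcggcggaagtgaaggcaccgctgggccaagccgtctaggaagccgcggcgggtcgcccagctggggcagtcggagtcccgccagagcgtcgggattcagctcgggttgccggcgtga
Hgs, chr11:120467385-120467684, plus strand: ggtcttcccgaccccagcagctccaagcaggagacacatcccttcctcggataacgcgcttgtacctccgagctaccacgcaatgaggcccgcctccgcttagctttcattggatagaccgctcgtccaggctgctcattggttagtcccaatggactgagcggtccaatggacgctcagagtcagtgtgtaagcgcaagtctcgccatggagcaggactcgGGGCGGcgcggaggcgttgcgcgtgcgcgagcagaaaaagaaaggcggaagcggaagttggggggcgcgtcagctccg
The Stam and Stam2 windows held 0 copies of CCGCCC on either strand, and the Hgs and Stambp windows 1 copy each. Windows were found for 7 of the 8 genes, all but Itch, and Nedd4 had 2, so that there were 8 windows. Of these, 5 held CCGCCC (62.5%), against 35.7% of all 32851 windows of the same length and 80.9% of the 8701 windows with at least 20 CpG dinucleotides. Stam and Stam2 had 35 CpG dinucleotides each, Hgs 28 and Stambp 14, where the median window had 7. The letters CGGAAG, a core of ETS factor sites that shares no whole copy with CCGCCC, were found on either strand in 5 of the 8 windows, with 2 copies for Hgs, 1 for Stam2 and 0 for Stam and for Stambp, against 16.9% of all windows and 35.1% of those with at least 20 CpG dinucleotides, to which 6 of the 8 belong. The windows of Stambp (14 CpG dinucleotides) and 1 of Nedd4 (13) fell short of 20, so the 8 as a whole are not matched to that class. These counts describe the letters of the windows, and the arrays do not measure binding there.

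Limma called 0 of 45037 probe sets in any of the 3 comparisons at an adjusted p under 0.05, with smallest adjusted p of 0.511 for wild-type over vector, 1 for H483A over vector and 0.927 for H483A over wild-type. At an unadjusted p under 0.05 there were 1361 (3.02%), 906 (2.01%) and 1941 (4.31%) probe sets in turn. At the median probe set the 95% interval of a log2 difference reached 0.34 in each direction. The 2 arrays of a group differed by 1 log2 unit or more at 70 probe sets in the vector arrays, 623 in the wild-type arrays and 826 in the H483A arrays. Kdm5a itself stood between 5.83 and 6.11 in all 6 arrays at its brightest probe set (1452360_a_at). A second probe set (1437105_at) lay between 4.85 and 6.14 and the other 4 between 3.01 and 4.62, and because their place relative to the deletion and the reintroduced sequence is not known here, they check neither. Of 13 fibroblast markers 12 lay at or above the median probe set (4.58), with a log2 of the summed signal of 15.1 to 15.2 in the vector arrays, 14.6 to 15.4 in the wild-type arrays and 14.7 to 15.3 in the H483A arrays. Of the other lists, 3 of 7 epithelial, 1 of 5 endothelial, 2 of 6 haematopoietic, 2 of 4 muscle and 1 of 5 neural markers lay at or above the median probe set, and no marker of these lists exceeded 7.01 in any array. The epithelial sum was 7.66 to 7.74, 7.67 to 7.90 and 7.74 to 8.15 in the order of groups above, and its part in the results was not tested.

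Stam stood higher in the wild-type arrays than in either other group. At its brightest probe set (1416861_at) the vector arrays read 7.60 and 7.61, the wild-type arrays 8.20 and 8.16, and the H483A arrays 7.74 and 7.62. Both wild-type arrays therefore lay above the other 4, and the H483A arrays lay just above the vector arrays. The log2 difference was 0.57 for wild-type over vector (1.49-fold), 0.08 for H483A over vector (1.05-fold) and -0.50 for H483A over wild-type (1.41-fold lower). The group means were 7.61 ± 0.01, 8.18 ± 0.03 and 7.68 ± 0.08 (SD, n = 2). In these bulk samples, a change in the share of cells that express a gene cannot be told apart from a change in RNA per cell.

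A second Stam probe set (1416862_at) ran the same way at a smaller size, with 6.54 in both vector arrays, 6.85 and 6.91 in the wild-type arrays, and 6.79 and 6.35 in the H483A arrays. The wild-type arrays were again the highest, while the H483A arrays lay on either side of the vector arrays and 0.44 apart. The 2 remaining Stam probe sets were weaker than the median probe set. One of them (1459427_at) ran the other way, at 4.65 and 4.53 in the vector arrays, 4.02 and 4.35 in the wild-type arrays, and 4.61 and 4.66 in the H483A arrays. The other (1457828_at) was higher in both KDM5A groups, at 3.60 and 3.51, 3.87 and 3.72, and 3.93 and 3.73. Both wild-type arrays thus lay above both vector arrays at 3 of the 4 Stam probe sets, and above both H483A arrays at the 2 with signal above the median probe set. As Stam was selected on its values, nothing is read from these counts.

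**Figure D1:**
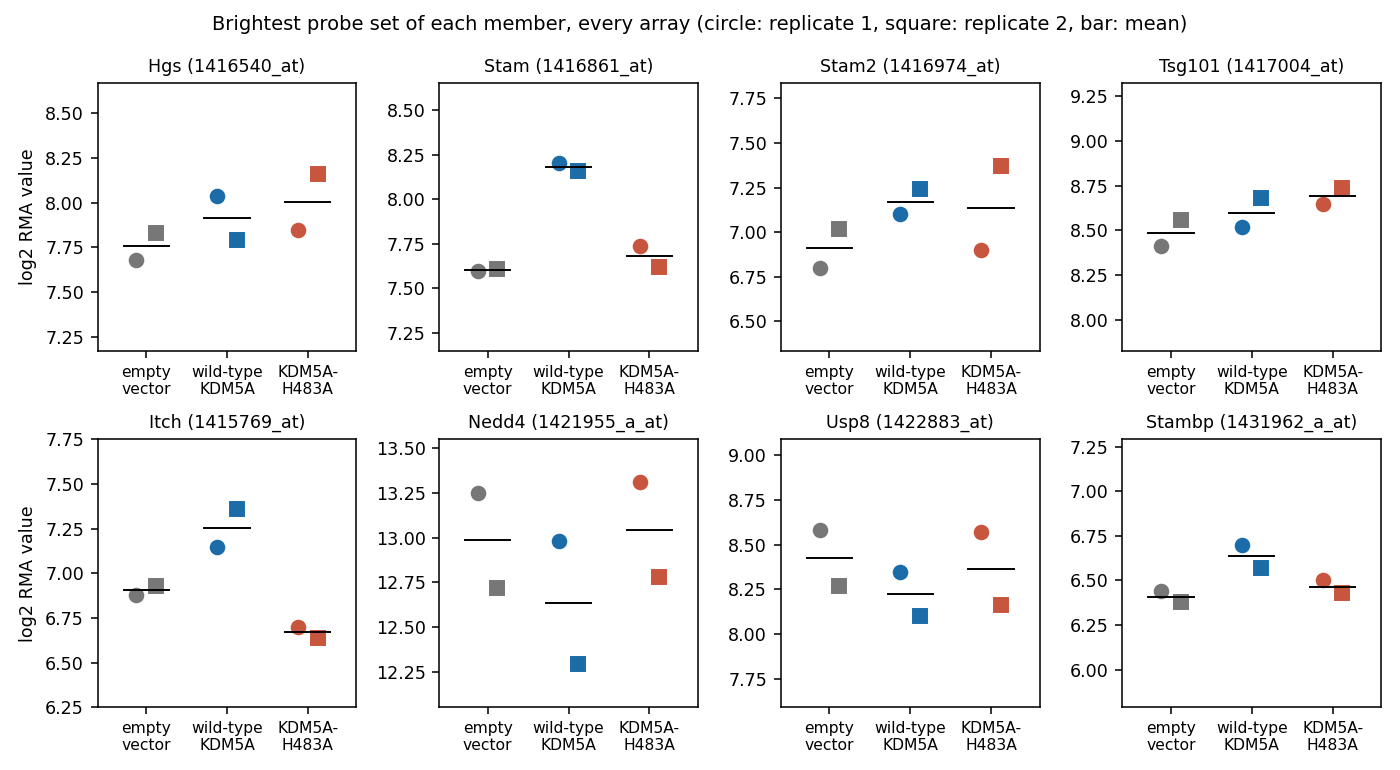
Log2 RMA value (vertical axis, the same height in every panel) of the brightest probe set of each member in every array, by group, with circles for replicate 1, squares for replicate 2 and a bar at the mean. Stam stands at 8.16 and 8.20 in the wild-type arrays and between 7.60 and 7.74 in the other 4 arrays, and Itch falls into 3 separate levels.

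Of the partners of Stam in ESCRT-0, neither had both wild-type arrays above the other 4 at its brightest probe set. Hgs, the subunit that binds the endosomal lipid phosphatidylinositol 3-phosphate and recruits STAM, had 1 probe set (1416540_at), which read 7.68 and 7.83 in the vector arrays, 8.04 and 7.79 in the wild-type arrays, and 7.85 and 8.16 in the H483A arrays. The wild-type arrays overlapped both other groups, and the H483A arrays lay above the vector arrays. For Hgs the log2 difference was 0.17 in wild-type over vector (SE 0.16, 95% CI -0.21 to 0.55) and 0.25 in H483A over vector (SE 0.16, 95% CI -0.13 to 0.63), both with a limma adjusted p of 1. For H483A over wild-type it was 0.08 (95% CI -0.30 to 0.46, limma adjusted p = 0.962).

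Stam2, which takes the place of STAM in ESCRT-0, had 6 probe sets. The brightest (1416974_at) read 6.80 and 7.02 in the vector arrays, 7.10 and 7.24 in the wild-type arrays, and 6.90 and 7.37 in the H483A arrays. Both wild-type arrays were above the vector arrays, but the H483A arrays spanned nearly the whole range of the gene. The log2 difference was 0.26 in wild-type over vector, with an SE of 0.18 and a 95% CI of -0.18 to 0.70 (limma adjusted p = 1), and -0.04 in H483A over wild-type, with a 95% CI of -0.47 to 0.40 (limma adjusted p = 0.989). The next brightest (1416976_at) read 6.84 and 7.05, 7.07 and 7.37, and 6.95 and 6.99, so that here both wild-type arrays lay above the other 4 (for H483A over wild-type the log2 difference was -0.25, 95% CI -0.60 to 0.10, limma adjusted p = 0.927). Another (1453338_at) was lower in the H483A arrays than in the other groups, at 5.89 and 5.6 against 6.04 and 6.08 in the vector arrays and 6.04 and 6.01 in the wild-type arrays. Its difference from the vector arrays was -0.32, with an interval of -0.64 to 0.01 (unadjusted p = 0.0529, limma adjusted p = 1). The other 3 had log2 differences between -0.15 and 0.12 in all comparisons. Stam2 was therefore not called at any probe set. The intervals at the brightest one reach 0.70 for wild-type over vector, which includes the 0.57 seen for Stam.

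Tsg101, the ESCRT-I subunit that receives cargo from HGS, had 1 probe set (1417004_at), with 8.41 and 8.56 in the vector arrays, 8.52 and 8.68 in the wild-type arrays, and 8.65 and 8.74 in the H483A arrays. The H483A arrays lay above both vector arrays, and the other pairs of groups overlapped. The log2 difference was 0.11 for wild-type over vector (95% CI -0.19 to 0.42, limma adjusted p = 1), 0.21 for H483A over vector (95% CI -0.09 to 0.51, limma adjusted p = 1) and 0.09 between the KDM5A groups (95% CI -0.21 to 0.40, limma adjusted p = 0.946). All 6 Tsg101 values lay within 0.33 of each other.

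Among the ligases, Itch differed from the vector arrays in opposite directions in the 2 KDM5A groups. Its brightest probe set (1415769_at) read 6.88 and 6.93 in the vector arrays, 7.15 and 7.36 in the wild-type arrays, and 6.70 and 6.64 in the H483A arrays. No group overlapped another: the wild-type arrays were highest, the vector arrays in the middle and the H483A arrays lowest. The log2 difference was 0.35 for wild-type over vector (1.28-fold), -0.23 for H483A over vector (1.17-fold lower) and -0.59 for H483A over wild-type (1.5-fold lower). Means were 6.90 ± 0.03, 7.25 ± 0.14 and 6.67 ± 0.04 (SD, n = 2). This order of the 3 groups, with no overlap, was found for 184 of 18193 genes (1.01%) and for Itch alone among the 8. As Itch was selected on the difference between its highest and lowest group, nothing is read from that share.

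The other 3 Itch probe sets (1431316_at, 1459332_at and 1440582_at) were weaker than the median probe set in their means and ranged from 2.64 to 4.22. None of them had the wild-type arrays highest: their log2 differences were -0.29, -0.13 and -0.07 for wild-type over vector, and 0.12, 0.07 and -0.08 for H483A over wild-type. The Itch pattern thus rests on 1 probe set.

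Nedd4, the founding member of the ligase family that includes ITCH, had 3 probe sets with strong signal, and they did not run together. The brightest (1421955_a_at) read 13.25 and 12.72 in the vector arrays, 12.98 and 12.29 in the wild-type arrays, and 13.31 and 12.78 in the H483A arrays. All groups overlapped, and the first array was higher than the second in each, by 0.52, 0.69 and 0.53. The second probe set (1450431_a_at) read 10.81 and 11.26, 11.65 and 11.32, and 11.28 and 10.70 in the same group order, with both wild-type arrays above the other 4. The third (1451109_a_at) read 10.36 and 10.72, 11.46 and 10.77, and 10.81 and 10.37, with the first wild-type array highest and the second just below the higher H483A array.

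For wild-type over vector these 3 Nedd4 probe sets had log2 differences of -0.35 (95% CI -1.07 to 0.37), 0.45 (95% CI -0.14 to 1.03) and 0.58 (95% CI -0.07 to 1.22), each with a limma adjusted p of 1. For H483A over wild-type they were 0.41 (95% CI -0.32 to 1.13), -0.49 (95% CI -1.08 to 0.09) and -0.52 (95% CI -1.17 to 0.12), each with a limma adjusted p of 0.927. H483A over vector gave 0.06, -0.05 and 0.05. Within each array, the gap between the first and the third probe set was 2.89 and 2.01 log2 units in the vector arrays, 1.52 in both wild-type arrays, and 2.49 and 2.40 in the H483A arrays. The gap between the first and the second was 2.43 and 1.46, 1.34 and 0.97, and 2.03 and 2.07. Both gaps were narrower in the wild-type arrays than in the other 4 arrays, a feature chosen after the values were seen. By contrast, the gap between the second and the third probe set stayed between 0.19 and 0.55. The Nedd4 transcripts that each probe set reads were not examined.

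**Figure D2:**
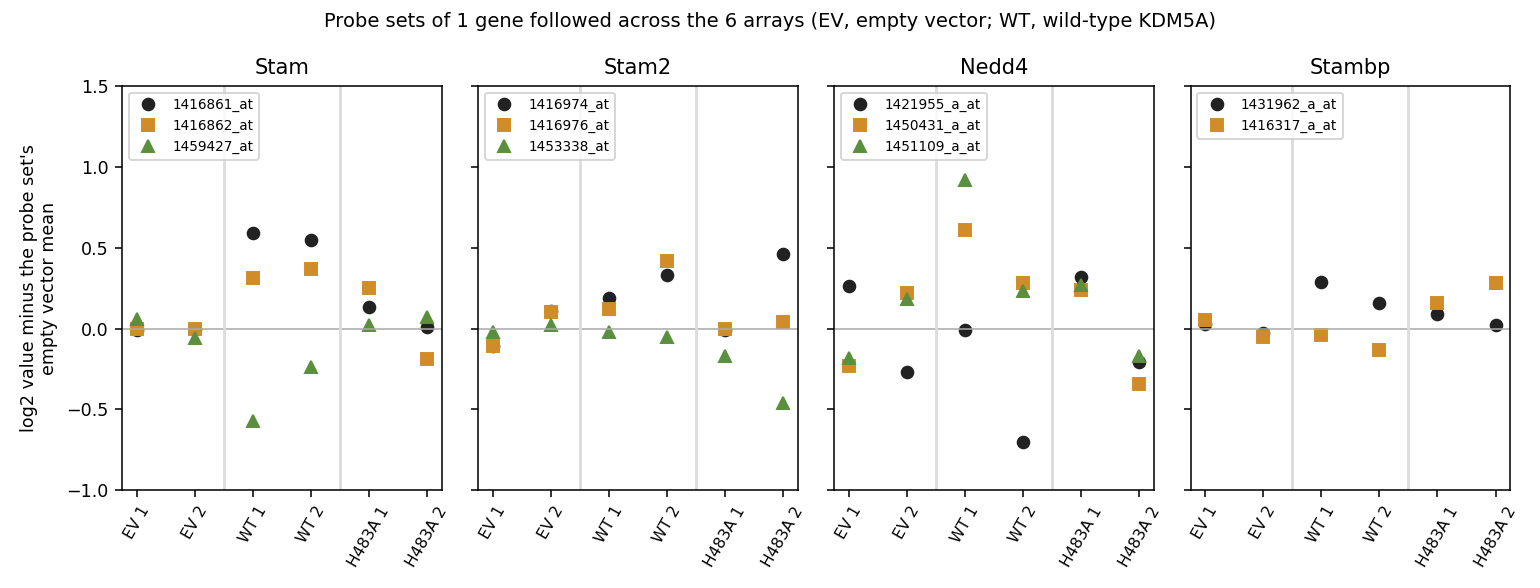
Log2 value minus the mean of the vector arrays of the same probe set (vertical axis), for the 3 brightest probe sets of Stam other than its weakest, the 3 brightest of the 6 of Stam2, all 3 of Nedd4 and both of Stambp, in each of the 6 arrays. For Nedd4 in the wild-type arrays, 1421955_a_at lies below the other probe sets, and in the same arrays the Stambp probe sets lie on opposite sides of the vector mean.

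Of the deubiquitinases, Usp8, which trims ubiquitin from receptors and stabilizes HGS and STAM, had no groups apart at its brighter probe set. That probe set (1422883_at) read 8.58 and 8.27 in the vector arrays, 8.35 and 8.10 in the wild-type arrays, and 8.57 and 8.16 in the H483A arrays. All groups overlapped, and the first array was the higher in each. The log2 difference was -0.20 for wild-type over vector (95% CI -0.66 to 0.26, limma adjusted p = 1) and 0.14 for H483A over wild-type (95% CI -0.32 to 0.60, limma adjusted p = 0.947). The weaker Usp8 probe set (1446807_at), below the median probe set, read 4.30 and 4.16 in the vector arrays, 4.2 and 4.28 in the wild-type arrays, and 4.16 and 3.86 in the H483A arrays. Here both H483A arrays lay below both wild-type arrays (log2 difference -0.23, 95% CI -0.57 to 0.11, limma adjusted p = 0.927).

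Stambp, the metalloprotease that opens lysine-63 ubiquitin chains, gave opposite readings at its 2 probe sets in the comparisons with the wild-type arrays. The brighter (1431962_a_at) read 6.44 and 6.38 in the vector arrays, 6.70 and 6.57 in the wild-type arrays, and 6.50 and 6.43 in the H483A arrays, so that the wild-type arrays lay above the other 4, as for Stam. The other (1416317_a_at) read 5.89 and 5.79, 5.80 and 5.71, and 6.0 and 6.12, so that the H483A arrays lay above the other 4. For wild-type over vector the log2 differences were 0.22 (95% CI -0.06 to 0.50, limma adjusted p = 1) and -0.08 (95% CI -0.37 to 0.20, limma adjusted p = 1). For H483A over vector they had the same sign, at 0.05 (95% CI -0.22 to 0.33) and 0.22 (95% CI -0.06 to 0.50). For H483A over wild-type they were -0.17 (95% CI -0.44 to 0.11, limma adjusted p = 0.927) and 0.30 (95% CI 0.02 to 0.58), the latter with an unadjusted p of 0.0383 and a limma adjusted p of 0.927. This was the only one of the 45 tests on the 6 genes with an unadjusted p under 0.05.

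Over the 6 genes that were not selected on their values, limma called 0 of 15 probe sets in each comparison, as it did of all probe sets (0%). At an unadjusted p under 0.05 there were 0, 0 and 1 of the 15, beside 3.02%, 2.01% and 4.31% of all probe sets. At the brightest probe sets of all 8 genes, both wild-type arrays lay above both vector arrays for 4 genes (Stam, Stam2, Itch and Stambp) and below for 0, where 16.5% and 15.4% of all genes did. Both H483A arrays lay above both vector arrays for 3 genes (Hgs, Stam and Tsg101) and below for Itch, where 13.6% and 14.6% of all genes did. Against the wild-type arrays they lay below for Stam, Itch and Stambp and above for 0, where 16.1% and 14.9% of all genes did. Of these counts, Stam and Itch were fixed by the choice of members or share arrays with it, and the comparisons share arrays with each other. The median log2 difference over the 8 was 0.20, 0.07 and 0.02 in the 3 comparisons, where the median gene stood at 0, 0 and -0.01. At the brightest probe sets of the 6 genes that were not selected on their values it was 0.14, 0.14 and 0.08. Over all 15 probe sets of these 6 genes it was 0.11, 0.05 and -0.04. The medians of both KDM5A groups over vector were thus the same at the brightest probe sets only.

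**Figure D3:**
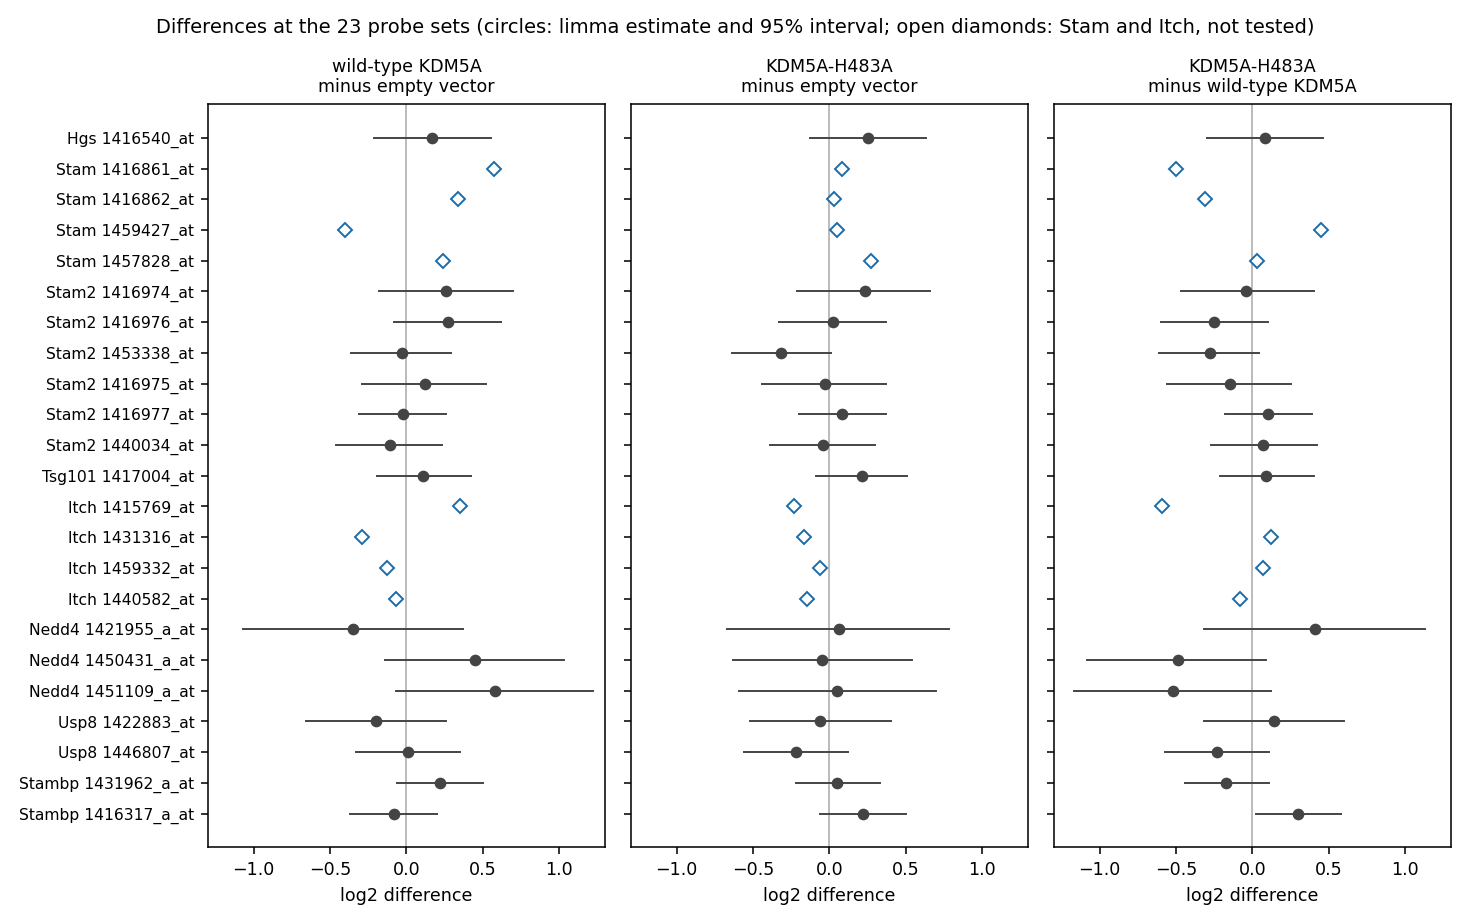
Log2 difference (horizontal axis) at each of the 23 probe sets in the 3 comparisons, with circles and 95% intervals of limma for the 6 tested genes and open diamonds, with no interval, for Stam and Itch. Of the 45 intervals only that of Stambp 1416317_a_at, in H483A over wild-type, lies off 0 (0.02 to 0.58).

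Several members also moved with the replicate number. The first array was higher than the second in all 3 groups for Nedd4, Usp8 and Stambp, and lower in all 3 for Stam2 and Tsg101, at their brightest probe sets. Among all genes, 17.3% were higher and 15.6% lower in the first array of every group. The replicate gap of Usp8 was 0.25 in the wild-type arrays and 0.41 in the H483A arrays, larger than the difference between those groups. For Stam the gap was 0.04 in the wild-type arrays and 0.12 in the H483A arrays, and for Itch the second wild-type array was higher by 0.20. Nothing is read from these gaps beside the difference between the KDM5A groups, on which both genes were selected.

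Across the wider pathway, 89 of 91 other genes in 8 lists were measured, each at its brightest probe set, and limma called 0 of them in any comparison. At an unadjusted p under 0.05, 1 was higher for wild-type over vector, 1 was higher for H483A over vector, and 2 were lower for H483A over wild-type, beside 3.23%, 2.12% and 4.55% of all genes. The first was the ESCRT-I subunit gene Mvb12a, at 8.51 and 8.45 in the wild-type arrays against 8.12 and 8.28 in the vector arrays (log2 difference 0.28, limma adjusted p = 1). Mvb12a was also 1 of the 2 lower in the H483A arrays, at 8.12 and 8.11 (log2 difference -0.36, 95% CI -0.64 to -0.08, limma adjusted p = 0.927). The other was Rab5a, which encodes a GTPase of early endosomes, at 9.55 and 9.41 against 9.90 and 9.76 in the wild-type arrays and 9.59 and 9.61 in the vector arrays (log2 difference -0.35, 95% CI -0.64 to -0.07, limma adjusted p = 0.927). The gene higher in the H483A arrays was Chmp7, of ESCRT-III, at 6.93 and 6.88 against 6.61 and 6.46 (log2 difference 0.37, limma adjusted p = 1). Mvb12a and Rab5a had both wild-type arrays above the other 4, as did 7.38% of all genes, and they were named on comparisons that share the wild-type arrays.

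Both wild-type arrays lay above both vector arrays for 30 of the 89 genes (33.7%, beside 16.5% of all genes) and below for 4 (4.49%, beside 15.4%). For H483A over vector these counts were 12 and 6 (beside 13.6% and 14.6% of all genes), and for H483A over wild-type they were 8 and 21 (beside 14.9% and 16.1%). The first and last comparisons share the wild-type arrays. Most of the 89 genes lay at or above the median probe set, and the shares of all genes were not matched to them for signal. Median log2 differences over the 89 genes were 0.09, 0.03 and -0.06. The lists were drawn up with earlier results of these data known, and none of the differences passed the threshold.

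Of the sorting machinery, the 9 alternative adaptors, which bind ubiquitin and clathrin beside ESCRT-0, had 8 members above 0 for wild-type over vector (median 0.17), 7 for H483A over vector (median 0.18) and 4 for H483A over wild-type (median -0.03). Tom1l1 had the largest difference in the first comparison (0.31, 95% CI -0.02 to 0.63) and in the last (-0.33, 95% CI -0.65 to 0). In H483A over vector it was Tollip, which encodes a ubiquitin-binding adaptor (0.25, 95% CI -0.22 to 0.73), with 7.44 and 8.01 in the H483A arrays. For Tom1l1 the wild-type arrays read 5.62 and 5.64 and the H483A arrays 5.17 and 5.44. The 11 other subunits of ESCRT-I and ESCRT-II had medians of 0.05, 0.04 and -0.05, and the ESCRT-II gene Vps36 had their largest differences for H483A over vector (0.37) and for H483A over wild-type (0.46, 95% CI -0.14 to 1.06). Vps36 read 7.50 and 8.24 in the H483A arrays, so that its second array alone set it apart. The 16 genes of ESCRT-III and its disassembly had medians of 0.07, 0.09 and -0.01 in the 3 comparisons, with the largest differences for Chmp3 (0.31 for wild-type over vector), Chmp1a (0.39 for H483A over vector, 95% CI -0.01 to 0.79) and Chmp2a (0.38 between the KDM5A groups).

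The 10 other ligases of the NEDD4 and CBL types had medians of 0.11, 0.07 and 0.07. Their largest differences were 0.35 for Cblb, a ligase of activated receptors, in wild-type over vector (95% CI -0.17 to 0.87), and 0.25 and 0.32 for Wwp2 in H483A over vector and in H483A over wild-type. The 9 adaptors of these ligases had medians of 0.09, -0.04 and -0.07. Of these, Txnip, an arrestin-domain protein, had a log2 difference of 0.62 for wild-type over vector, but its arrays read 9.87 and 8.10 against 8.47 and 8.26 (95% CI -1.04 to 2.29). Arrb2, which encodes a beta-arrestin, had their largest difference for H483A over vector (0.16, 95% CI -0.25 to 0.58). The 4 other deubiquitinases measured had medians of 0.07, -0.06 and -0.12. Stambpl1, a paralogue of Stambp, had their largest difference for wild-type over vector (0.21, 95% CI -0.10 to 0.52). Usp9x, a deubiquitinase that acts on ITCH, read 7.45 and 7.21 in the H483A arrays against 7.58 and 7.87 in the wild-type arrays and 7.44 and 7.82 in the vector arrays (log2 difference -0.40 between the KDM5A groups, 95% CI -0.83 to 0.04).

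Of the 16 genes of endosome identity, 8 had both wild-type arrays above the vector arrays and 1 below (median difference 0.14). Among all genes 16.5% and 15.4% did. For H483A over vector there was 1 above and 1 below (median 0.01), beside 13.6% and 14.6% of all genes. For H483A over wild-type there was 1 above and 6 below (median -0.12), beside 14.9% and 16.1% of all genes. The largest in the first comparison was Rabgef1, an exchange factor for RAB5, at 7.39 and 7.89 against 6.94 and 7.36 in the vector arrays and 7.16 and 7.17 in the H483A arrays (0.49, 95% CI -0.01 to 0.99, limma adjusted p = 1). Zfyve16, which encodes an endosomal FYVE-domain protein, had the largest difference between the KDM5A groups (-0.62, 95% CI -1.35 to 0.10), with values of 5.99 and 5.01 in the H483A arrays. The 14 receptors measured as cargo had medians of 0.03, -0.05 and -0.11. Pdgfra, a receptor for PDGF, read 9.27 and 8.43 in the wild-type arrays against 8.37 and 7.98 in the vector arrays (0.67, 95% CI -0.24 to 1.58). Pdgfrb read 8.35 and 7.41 in the H483A arrays against 8.41 and 8.22 (-0.43, 95% CI -1.46 to 0.59), and Lifr, a cytokine receptor, 7.08 and 5.87 against 7.35 and 6.47 in the wild-type arrays (-0.44, 95% CI -1.49 to 0.62). For these receptors the replicates of each KDM5A group lay further apart than the group means.

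**Figure D4:**
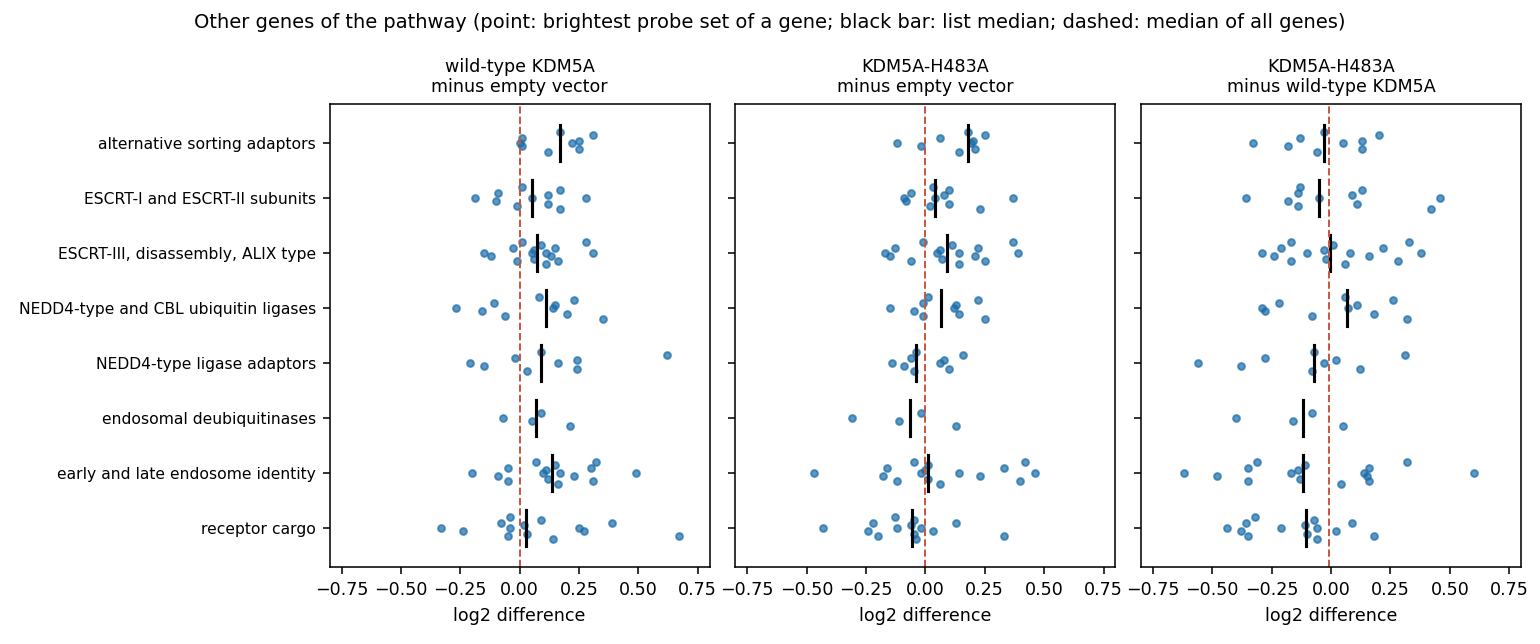
Log2 difference (horizontal axis) of the brightest probe set of each other pathway gene, by list, in the 3 comparisons, with a black bar at the median of the list and a dashed line at the median of all genes. The endosome identity list has its median at 0.14, 0.01 and -0.12 from left to right.

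The genes whose values over the 6 arrays were most like those of Stam, out of 6174 genes with a mean at or above the median probe set and an SD of at least 0.2, were Tacc1, a centrosomal protein (Pearson's r = 0.989 over 6 arrays), Slc39a10, a zinc transporter (0.987), Cpeb4, an RNA-binding protein (0.984), Flcn, which encodes the lysosome-associated protein folliculin (0.983), and Spata6 (0.980). Tacc1 read 7.33 and 7.46 in the vector arrays, 7.92 and 7.91 in the wild-type arrays, and 7.53 and 7.40 in the H483A arrays. Cpeb4 had a wider step, at 5.98 and 6.21, 6.98 and 7.05, and 6.35 and 6.09. The genes most like Itch were Zfp763 (Pearson's r = 0.982 over 6 arrays), Crebbp, an acetyltransferase (0.980), Pole2, a subunit of DNA polymerase epsilon (0.977), Chac2 (0.974) and Lalba (0.973). Crebbp read 8.83 and 8.79, 9.0 and 9.26, and 8.69 and 8.55 for the same groups, with no overlap between its groups. Where a gene had several probe sets past these limits, the most correlated one was taken. These are thus the highest of at least 6174 correlations over 6 points that share their arrays, and they are given as a description. No other member was among these 10 genes. Hgs, Tsg101 and Stambp had an SD under 0.2 and could not be listed, so nothing is read from their absence.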

How the data were processed

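RNA from 6 cultures (2 per group) was measured on 1 array type. The authors deposited 1 table of log2 values for every probe set in each array. The submitters' processing notes name RMA, which subtracts background, quantile-normalizes and summarises probes, with its version not given in the sources used here. The log2 values ran from 2.12 to 14 with array medians of 4.55 to 4.60 and were used unscaled. An array gives no molecule count, and the number of arrays limits precision.

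Of 45101 probe sets, 64 array controls were left out. The platform annotation gave 34945 of the rest 1 gene symbol, 932 several and 9160 none. Symbols were updated by Entrez ID (34741 matched). Limma 3.58.1 under R 4.3.3 (a group-means model, lmFit and eBayes, 3 residual and 3.52 prior degrees of freedom) was fitted to all 45037 probe sets with two-sided p-values adjusted over all of them by Benjamini-Hochberg, threshold 0.05. The procedure was also run on simulated data with independent noise for each array. That setting lacks the correlation of same-numbered arrays given below, so nothing is read from it here. Each gene was read at its brightest probe set by mean over the 6 arrays, not ending in _x_at where another existed. Genes correlated with Stam or Itch were instead taken at their most correlated probe set. Named were all members with every probe set, the gene of each pathway list with the largest difference per comparison, the pathway genes with an unadjusted p under 0.05 (added after their values were seen), and the 5 genes most correlated with Stam and with Itch. Alternatives were a replicate block, the 4 arrays compared alone, each array left out, 2 scalings, a filter on weak probe sets, 1 probe set per gene, a trended robust prior and array weights. The members and lists were chosen with earlier results of these data known. Start regions came from RefSeq (GRCm38.p6).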

Additional observations from a re-analysis of the deposited data

Results flagged for a closer look

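Itch stood out because both wild-type arrays lay above, and both H483A arrays below, the vector arrays at its brightest probe set, with log2 differences against the vector arrays of 0.35 and -0.23. The difference between these 2 effects was not tested, because Itch had been selected on it.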

How the results depend on the processing

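Limma called 0 probe sets in each of the 3 comparisons under all 14 alternatives run. The largest change in the count at an unadjusted p under 0.05 came without the first H483A array, with 4330 for H483A over vector and 4886 for H483A over wild-type, where all arrays gave 906 and 1941. Without the second H483A array the last count was 1266. Wild-type over vector had 505 without the first vector array in place of 1361, and H483A over vector 478 without the second vector array. With the replicate block these counts were 1967, 1412 and 2558 in the order of comparisons of the report, with smallest adjusted p of 0.197, 0.995 and 0.798. The replicate numbers are not stated to pair the cultures, and the deviations of same-numbered arrays correlated at 0.272, 0.0291 and 0.489 across probe sets for vector with wild-type, vector with H483A and wild-type with H483A. Under the block Nedd4 (1421955_a_at) had an unadjusted p of 0.0271 for wild-type over vector and 0.0145 for H483A over wild-type, with adjusted p of 0.998 and 0.798. Its differences there were -0.35 and 0.41. The other Nedd4 probe sets, for which the block was not examined, went the opposite way, with 0.45 and 0.58 for wild-type over vector and -0.49 and -0.52 for H483A over wild-type.

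Apart from leaving out arrays, no alternative turned the direction of a member at its brightest probe set, and 191 of 192 member values stayed within the spread or on the same side of the threshold. The exception was Stam for wild-type over vector, at 0.50 with quantile normalization repeated in place of 0.57. Of these alternatives, only the 2 scalings could move a difference, because the rest leave the group means as they are. Under the rest the size and direction were fixed in advance, so nothing is read from that count. Leaving out 1 array turned the direction 10 times. For wild-type over vector Nedd4 ranged from -0.70 to 0, Hgs from 0.04 to 0.29, Tsg101 from 0.03 to 0.20 and Usp8 from -0.36 to -0.05. For H483A over vector Nedd4 ranged from -0.21 to 0.32, Hgs from 0.10 to 0.40, Tsg101 from 0.13 to 0.28, Stam from 0.02 to 0.14, Stam2 from -0.01 to 0.46 and Usp8 from -0.27 to 0.14. For H483A over wild-type Hgs ranged from -0.07 to 0.24, Stam2 from -0.27 to 0.20, Usp8 from -0.07 to 0.35, Nedd4 from 0.06 to 0.75 and Tsg101 from 0.01 to 0.18. Stam ranged from 0.55 to 0.60 for wild-type over vector and from -0.56 to -0.44 between the KDM5A groups, and Itch from 0.25 to 0.45 and from -0.69 to -0.48. As Stam and Itch were selected on the difference between the KDM5A groups in these same arrays, nothing is read from any of their ranges. Stam2 for wild-type over vector ranged from 0.15 to 0.37, and Stambp from 0.16 to 0.28, 0.02 to 0.09 and -0.23 to -0.10 in the 3 comparisons. A left-out array leaves 1 in its group, which is then assumed to vary like the others. With 2 arrays per group the intervals of the report were wide, and any difference within an interval is compatible with its values. These intervals are not adjusted for the number of probe sets, so a difference large enough to put its interval off 0 could still be missed. Stambp 1416317_a_at, at 0.02 to 0.58 for H483A over wild-type, was not called.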
